A study of Caenorhabditis elegans with 9 samples.

Results

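The genes described here encode proteins of P granules, the RNA and protein condensates that mark the germ line of the nematode Caenorhabditis elegans. They were chosen by name: 4 germline helicase genes (glh-1, glh-2, glh-3, glh-4), 3 genes of the PGL family (pgl-1, pgl-2, pgl-3), deps-1, and the pair meg-1 and meg-2. A gene counted as measured where the array carried a probe set assigned to it alone. All 10 were measured, by 13 of the 20766 single-gene probe sets, and they are 10 of the 17118 genes tested. Of these 10 genes, 5 lie on chromosome I (the 4 glh genes and deps-1), 2 on X (meg-1 and meg-2), and pgl-1, pgl-2 and pgl-3 on chromosomes IV, III and V.

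P granules are inherited through the oocyte, are sorted at each early division into the cell that will found the germ line, and are dissolved or degraded in cells that become somatic. GLH proteins are DEAD-box RNA helicases related to Vasa, and PGL proteins are the scaffold that recruits RNA. MEG proteins are present in embryonic P granules, whereas GLH and PGL proteins stay with germ cells throughout life. The granules hold Argonaute proteins and repressed maternal messengers, and somatic cells keep germ granule genes off through chromatin repressors of the synMuv B class.

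Total RNA of mixed-stage embryos was measured on 9 Affymetrix arrays, 3 in each of 3 groups, all from XX worms raised at 20 °C. Control embryos came from wild-type (N2) worms fed bacteria that carried L4440, an RNAi vector with no insert. For smo-1 RNAi, N2 worms were fed bacteria expressing double-stranded RNA of smo-1, the gene of the ubiquitin-like modifier SUMO. The third group, sdc-2(y93)+RNAi, came from worms that carried the allele sdc-2(y93) and, per the sample labels, were also fed sdc-2 RNAi. The growth protocol conflicts with this, since the only plasmid it names for both RNAi feedings is that against smo-1, and the name used here follows the sample labels. SDC-2 brings the dosage compensation complex to the X chromosomes of hermaphrodites, so this group combines an allele and RNAi of the same gene. Control worms spent 96 hours on RNAi plates, whereas the others had 24 hours on HB101 before 72 hours of RNAi feeding, a difference in feeding that the comparisons with control carry. Levels are the deposited RMA values on the log2 scale, where 1 unit is a 2-fold difference, and levels of different genes are not compared because probe sets differ in brightness. Whole embryos were extracted, so fewer germ cells and less RNA per germ cell cannot be told apart. Nothing in the labels ties replicates to separate cultures, so the p-values reflect only sample-to-sample spread, which may be technical in part.

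The smo-1 messenger stood at 11.93 ± 0.13 (SD, n = 3) on control arrays, 8.26 ± 0.38 (n = 3) on smo-1 RNAi arrays and 10.88 ± 0.12 (n = 3) on sdc-2(y93)+RNAi arrays, so it was low in the RNAi group and also below control in the third group (-1.05 ± 0.17, limma adjusted p = 0.00094). The sdc-2 messenger itself did not pass there on its brightest probe set (-0.35 ± 0.16, limma adjusted p = 0.14), and its mean over all probe sets was lower (-0.86, limma adjusted p = 0.00039). These values do not settle which RNAi the third group received. The third group stood apart in array handling: the hybridisation control cre was 7.83 above control on its arrays, so array batch and that group cannot be told apart. Correlations between arrays of a group over all genes ran from 0.984 to 0.997, and the lowest involved replicate 2 of sdc-2(y93)+RNAi. Values that turn sign or change their call without that array are given with and without it. A sign of RNA integrity, the 3′ to 5′ log2 ratio of control transcripts, differed from control on smo-1 RNAi arrays by 0.66 for actin, -0.26 for GAPDH, 0.32 for ubiquitin and 0.86 for catalase. The differences of the third group were 0.81, 0.52, 0.34 and -0.084 in that order. Exact permutation tests (two-sided) gave p = 0.6 for the last value and p = 0.1 for the others, the smallest that 3 against 3 arrays allow. The ratios thus did not all move one way. The part of RNA quality in the changes below was not tested. As a reference for dim probe sets, 27 probe sets of bacterial spike transcripts that were raised on no array lay between 4.50 and 6.39, with a median of 4.95. Genes of yolk proteins, made by the adult intestine, lay at array means of 5.55 to 5.80, within that range.

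**Figure D1:**
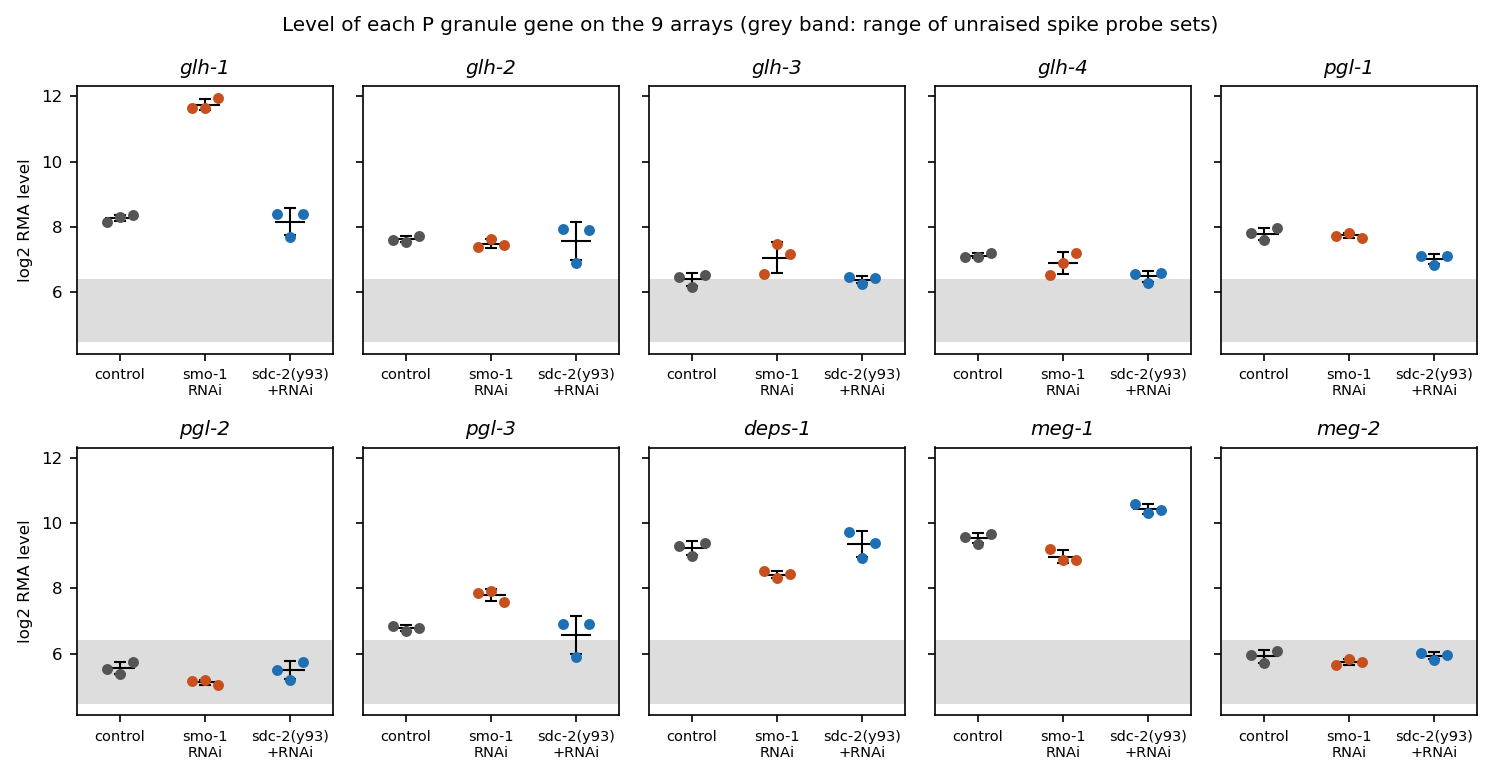
Log2 RMA level of the 10 P granule genes (vertical axis) on the 9 arrays, by group (horizontal axis). Points are single arrays, bars the mean ± SD of 3 arrays, and the grey band the range from 4.50 to 6.39 of unraised spike probe sets. The smo-1 RNAi arrays stand at 11.64 or above for glh-1 and between 7.59 and 7.92 for pgl-3, and pgl-2 and meg-2 lie within the band on every array.

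The comparison of smo-1 RNAi with control asked what loss of SUMO does to embryonic transcripts. The P granule genes did not move as a block. The messengers of glh-1, pgl-3 and glh-3 rose, those of deps-1, meg-1 and pgl-2 fell, and 4 of the 10 genes (glh-2, glh-4, pgl-1 and meg-2) did not pass the test (limma, two-sided, Benjamini-Hochberg adjusted p under 0.05 over all genes). Over all genes 17.8% were higher and 22.2% lower in this comparison, and over genes above the median level, where 7 of the 10 lie, 22.5% and 38.2%. With 3 genes in each direction, the number called was near the background, and the median log2 fold change of the 10 genes, -0.15, was close to the -0.17 of all genes above the median level. The change of glh-1 was by far the largest of the 10.

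The Vasa-type helicase gene glh-1 was 11.1-fold higher in smo-1 RNAi embryos. Its level was 8.17, 8.30 and 8.36 on the control arrays and 11.65, 11.64 and 11.94 on the smo-1 RNAi arrays. On the sdc-2(y93)+RNAi arrays it was 8.39, 7.69 and 8.41. The smo-1 RNAi arrays thus lay far above all others, while the ranges of the other groups overlapped and replicate 2 of sdc-2(y93)+RNAi was the lowest array. The log2 fold change of 3.47 ± 0.18 (SE, limma adjusted p = 1.5e-07) was the 86th highest of the 17118 genes, and kept its call under all 20 alternatives, between 3.34 and 3.67. The suffix of this probe set marks it as open to signal from related transcripts, but a second probe set without that mark gave 3.54 ± 0.17 (limma adjusted p = 1.2e-07 over all single-gene probe sets). On that second probe set the smo-1 RNAi arrays read 10.72, 10.95 and 11.05 against 7.38, 7.35 and 7.37 in control.

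Of the other helicases, glh-2 and glh-4 did not pass and glh-3 rose by less. For glh-2, the closest relative of glh-1, the level was 7.59, 7.55 and 7.73 in control and 7.38, 7.63 and 7.45 in smo-1 RNAi embryos. These ranges overlapped, and the difference was -0.13 ± 0.23 (limma adjusted p = 0.72). For glh-4, the level was 7.08, 7.08 and 7.20 in control and 6.54, 6.91 and 7.21 in smo-1 RNAi embryos, and the difference of -0.23 ± 0.16 did not pass (limma adjusted p = 0.29). GLH-3, which lacks the glycine-rich repeats of the other GLH proteins, was read by a probe set open to related transcripts. Its messenger was at 6.48, 6.17 and 6.54 in control and 6.55, 7.47 and 7.18 in smo-1 RNAi embryos. The lowest smo-1 RNAi array lay only just above the highest control array, and the rise of 0.66 ± 0.20 (limma adjusted p = 0.021) was lost without control replicate 2 (0.55, adjusted p = 0.080), smo-1 RNAi replicate 2 (0.46, adjusted p = 0.084) or smo-1 RNAi replicate 3 (0.61, adjusted p = 0.073). It was also lost when only the 6 arrays compared were fitted (adjusted p = 0.0501) and with quantile normalization repeated (0.55, adjusted p = 0.056). Whether glh-1 messenger binds to this probe set was not tested.

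Of the PGL genes, pgl-3 rose 2.01-fold in smo-1 RNAi embryos and pgl-1 did not pass. PGL-1 and PGL-3 are related RNA-binding scaffold proteins that bind each other and are both present in embryonic P granules. The level of pgl-3 was 6.86, 6.70 and 6.80 in control and 7.87, 7.92 and 7.59 in smo-1 RNAi embryos, so all smo-1 RNAi arrays were higher (1.01 ± 0.23, limma adjusted p = 0.0050). The call held under all 20 alternatives, between 0.87 and 1.21. For pgl-1, the level was 7.82, 7.59 and 7.96 in control and 7.74, 7.82 and 7.67 in smo-1 RNAi embryos, within the control range on each array (-0.046 ± 0.12, limma adjusted p = 0.82). PGL-2, which lacks the RNA-binding RGG box of the other PGL proteins, is a gene product of the postembryonic germ line. Its gene was dim, at 5.54, 5.39 and 5.76 in control and 5.17, 5.19 and 5.04 in smo-1 RNAi embryos, inside the range of the spike probe sets. The fall of pgl-2, -0.43 ± 0.14 (limma adjusted p = 0.034), was lost without any of 5 arrays, namely control replicates 1 (adjusted p = 0.077) and 3 (0.14) and smo-1 RNAi replicates 1 (0.066), 2 (0.063) and 3 (0.11).

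DEPS-1 is a P granule protein that is needed for normal accumulation of glh-1 messenger and for PGL-1 assembly. Its gene moved opposite to glh-1. The level of deps-1 was 9.31, 8.98 and 9.40 in control and 8.52, 8.31 and 8.45 in smo-1 RNAi embryos, with no overlap. It was 1.75-fold lower (log2 -0.81 ± 0.18, limma adjusted p = 0.0046), a call that held under all 20 alternatives, between -0.94 and -0.61.

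The MEG proteins are low-complexity proteins of early embryonic P granules that are needed for germ cell development. The level of meg-1 was 9.58, 9.36 and 9.66 in control and 9.20, 8.86 and 8.87 in smo-1 RNAi embryos, so all smo-1 RNAi arrays were lower. It was 1.47-fold lower (log2 -0.56 ± 0.13, limma adjusted p = 0.0047). This brightest probe set of meg-1 is open to related transcripts. Of its other probe sets, one gave -0.29 ± 0.15 (limma adjusted p = 0.14) with overlapping arrays, and a dim one gave -0.47 ± 0.12 (limma adjusted p = 0.0080). The fall is thus called by 2 of 3 probe sets and has the same sign on all 3. For meg-2, its neighbour on X, the level was 5.98, 5.71 and 6.07 in control and 5.65, 5.83 and 5.76 in smo-1 RNAi embryos, within the range of the spike probe sets, and the difference of -0.17 ± 0.11 did not pass (limma adjusted p = 0.28).

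**Figure D2:**
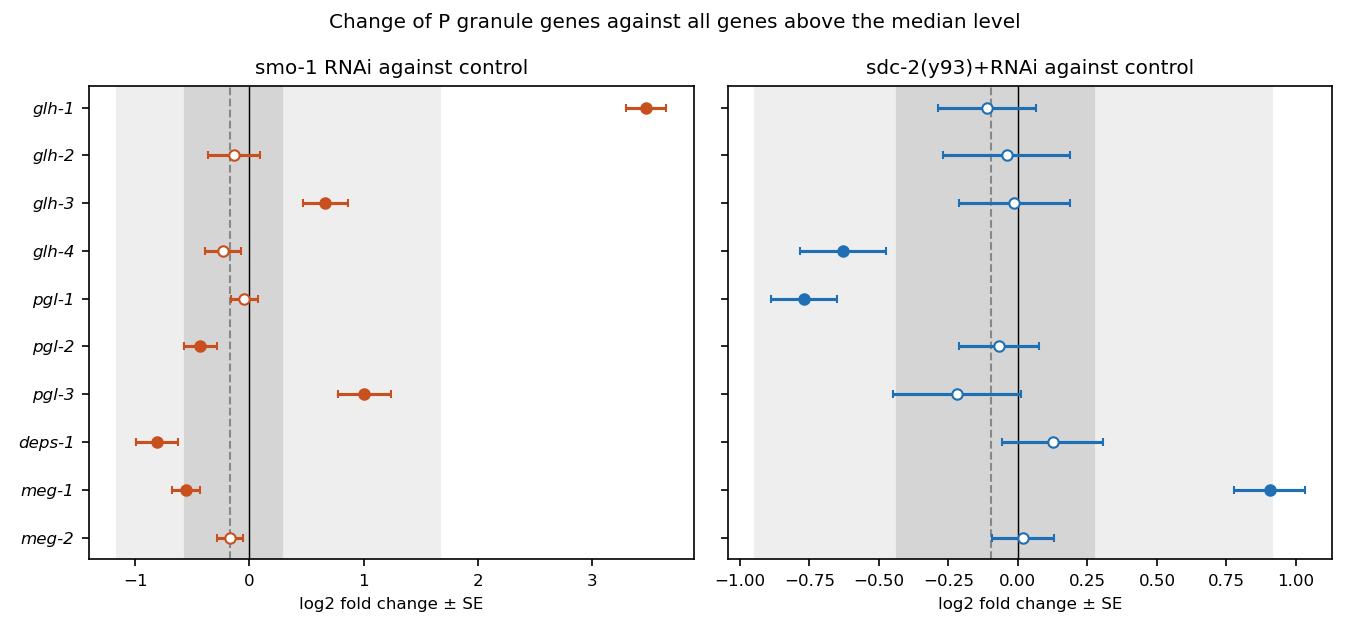
Log2 fold change ± SE (horizontal axis) of each P granule gene (vertical axis) in smo-1 RNAi embryos (left) and sdc-2(y93)+RNAi embryos (right) against control, 3 arrays a group, with filled points where the limma adjusted p is under 0.05. The dashed line is the median of the 8559 genes above the median level, the darker band runs between their quartiles and the lighter one leaves out 5% of them at each end. In smo-1 RNAi embryos glh-1, at 3.47, lies outside the lighter band, and in sdc-2(y93)+RNAi embryos all 10 genes lie inside it.

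The comparison of sdc-2(y93)+RNAi embryos with control asked what changes when dosage compensation of X is disrupted. The messenger of meg-1 rose, those of pgl-1 and glh-4 fell, and 7 of the 10 genes did not pass the test. Over all genes 10.9% were higher and 15.6% lower (19.8% and 28% over genes above the median level), so 1 gene higher and 2 lower of 10 is near the background. The median of the 10 genes was -0.054, against -0.097 for genes above the median level.

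The level of meg-1 was 10.60, 10.31 and 10.41 in sdc-2(y93)+RNAi embryos, above the control range of 9.36 to 9.66 on every array. It was 1.87-fold higher (log2 0.90 ± 0.13, limma adjusted p = 0.00046), and a second bright probe set gave 1.02 ± 0.15 (limma adjusted p = 0.00050 over all single-gene probe sets). The dim probe set did not follow, with 6.67, 6.48 and 6.48 against 6.70, 6.37 and 6.79 in control (-0.075 ± 0.12, limma adjusted p = 0.71). As meg-1 is X-linked, its change was set beside other X-linked genes, whose median was 0.45 over the 1380 above the median level. The change of meg-1 exceeded that median by 0.45 and was larger than that of 78.6% of them. In smo-1 RNAi embryos the same X-linked genes had a median of 0.23, and meg-1 lay 0.78 below it, lower than all but 9.71% of them. The X-linked meg-2 stood at 6.04, 5.82 and 5.96 in sdc-2(y93)+RNAi embryos, inside the control range of 5.71 to 6.07 (0.019 ± 0.11, limma adjusted p = 0.93).

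**Figure D3:**
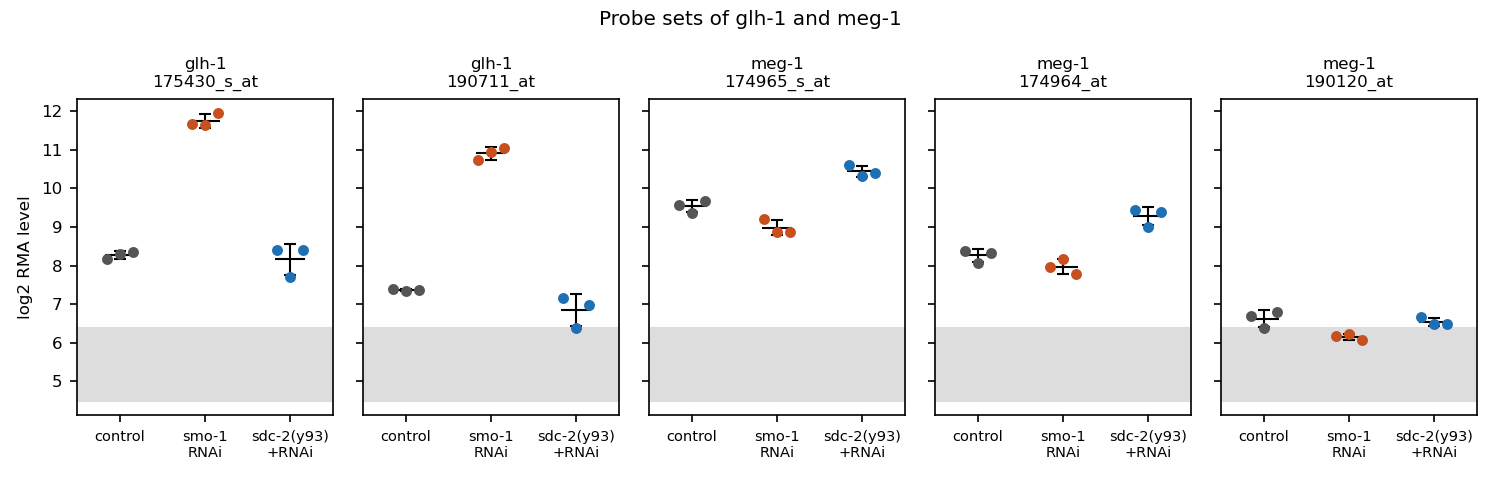
Log2 RMA level (vertical axis) of the 2 probe sets of glh-1 and the 3 of meg-1 on the 9 arrays by group (horizontal axis), with points for arrays, bars for the mean ± SD of 3 arrays and the grey band for unraised spike probe sets (4.50 to 6.39). Both glh-1 probe sets are raised on the smo-1 RNAi arrays, and 2 of the 3 meg-1 probe sets are raised on the sdc-2(y93)+RNAi arrays, the dim one not.

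Both genes that fell in sdc-2(y93)+RNAi embryos were autosomal. The level of pgl-1 was 7.10, 6.84 and 7.12, below every control array, a 1.71-fold difference (log2 -0.77 ± 0.12, limma adjusted p = 0.00080) whose call held under all 19 alternatives that measure it. The level of glh-4 was 6.57, 6.30 and 6.60, also below every control array, a 1.55-fold difference (log2 -0.63 ± 0.16, limma adjusted p = 0.012). Each of these genes was read by a single probe set open to related transcripts. Among autosomal genes above the median level the median change was -0.18 and the lowest 5% lay under -0.98, so both changes are within the usual range.

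For the remaining P granule genes, replicate 2 of sdc-2(y93)+RNAi was the lowest array of its group. It lay farthest below the others for pgl-3, glh-2 and glh-1. The level of pgl-3 was 6.90, 5.90 and 6.90, with a difference of -0.22 ± 0.23 (limma adjusted p = 0.58), and 0.12 without that array (adjusted p = 0.52). For glh-2 it was 7.94, 6.91 and 7.89, a difference of -0.040 ± 0.23 (limma adjusted p = 0.93), and 0.30 without that array (adjusted p = 0.060). For glh-1 the difference was -0.11 ± 0.18 (limma adjusted p = 0.73), and 0.12 without it (adjusted p = 0.50). The second probe set of glh-1 read 7.16, 6.38 and 6.99, below control on each array (-0.52 ± 0.17, limma adjusted p = 0.046). The probe sets of glh-1 thus have the same sign in this comparison and differ in their call. The call of the second one was borderline. In the fit that left out probe sets open to related transcripts, it stood for glh-1 and did not pass. The lowest limma adjusted p of glh-1 over the 20 alternatives was 0.056. Replicate 2 was the lowest array on the second probe set too, and that call was not refitted without it. The levels of glh-3 (6.47, 6.26 and 6.43) and pgl-2 (5.51, 5.21 and 5.77) overlapped those of control. Their differences were -0.013 ± 0.20 and -0.068 ± 0.14 (limma adjusted p = 0.97 and 0.80), and 0.049 and 0.076 without replicate 2 (adjusted p = 0.92 and 0.74). The level of deps-1, 9.74, 8.95 and 9.39, overlapped control too (0.12 ± 0.18, limma adjusted p = 0.70), with a difference of 0.33 without replicate 2 (adjusted p = 0.15). Without replicate 1 of sdc-2(y93)+RNAi its sign turned (-0.067, limma adjusted p = 0.81).

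Both perturbed groups share the control arrays, so a direct comparison between the perturbed groups tests whether they differ. In it glh-1, pgl-3, pgl-1 and glh-3 were higher and meg-1 and deps-1 lower in smo-1 RNAi embryos, with 18.4% of all genes higher and 17.2% lower (25.2% and 30.8% above the median level). The difference was 3.58 ± 0.18 for glh-1 (limma adjusted p = 2.7e-07), the 16th highest of all genes. It was -1.46 ± 0.13 for meg-1 (limma adjusted p = 9.2e-06), the 90th lowest, where its 3 probe sets had the same sign and all passed. For pgl-3 it was 1.22 ± 0.23 (limma adjusted p = 0.0017), for pgl-1 0.72 ± 0.12 (limma adjusted p = 0.00067) and for deps-1 -0.93 ± 0.18 (limma adjusted p = 0.0022). The call of glh-3 (0.68 ± 0.20, limma adjusted p = 0.021) was lost without any of 4 arrays, smo-1 RNAi replicates 2 (adjusted p = 0.085) and 3 (0.074) and sdc-2(y93)+RNAi replicates 2 (0.060) and 3 (0.051). It was also lost under autosomal centring (0.48, adjusted p = 0.064) and with quantile normalization repeated (0.55, adjusted p = 0.061). Without sdc-2(y93)+RNAi replicate 2, glh-2 (-0.43, adjusted p = 0.0076) and pgl-2 (-0.51, adjusted p = 0.010) were lower as well, and without smo-1 RNAi replicate 1 glh-4 was higher (0.57, adjusted p = 0.0080).

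Ordered by mean level, glh-1 ran from sdc-2(y93)+RNAi (8.16 ± 0.41) and control (8.27 ± 0.10), which did not differ beyond their spread, to smo-1 RNAi (11.74 ± 0.17, SD, n = 3 each). The order of meg-1 was smo-1 RNAi (8.98 ± 0.19), control (9.53 ± 0.15) and sdc-2(y93)+RNAi (10.44 ± 0.15), and each step passed the test on this probe set. For pgl-1 it was sdc-2(y93)+RNAi (7.02 ± 0.16), then smo-1 RNAi (7.74 ± 0.08) and control (7.79 ± 0.19), which did not differ beyond their spread. For deps-1 it was smo-1 RNAi (8.43 ± 0.11), then control (9.23 ± 0.22) and sdc-2(y93)+RNAi (9.36 ± 0.40), the upper pair likewise not separated.

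Related genes were compared within each array, as the log2 level of one minus that of the other, in 4 pairs and both comparisons with control. Only the change of such a difference between groups has a meaning, since probe sets differ in brightness. The difference of glh-1 and glh-2 was 0.65 ± 0.09 (SD, n = 3) in control and 4.26 ± 0.24 (n = 3) in smo-1 RNAi embryos, a change of 3.61. The change was 3.70 for glh-1 and glh-4. The difference of pgl-1 and pgl-3 was 1.00 ± 0.14 in control and -0.049 ± 0.11 in smo-1 RNAi embryos, a change of -1.05 toward pgl-3. In each of these 3 cases, and for glh-1 and glh-4 in sdc-2(y93)+RNAi embryos (0.52), the arrays of the groups did not overlap, with an exact permutation p (two-sided) of 0.1, the lowest possible with 3 against 3 arrays, or 0.13 adjusted over the 8 tests. The other tests, glh-1 and glh-2 (-0.071) and pgl-1 and pgl-3 (-0.55) in sdc-2(y93)+RNAi embryos, gave exact two-sided permutation p of 0.6 and 0.2. Without sdc-2(y93)+RNAi replicate 2 the change of pgl-1 and pgl-3 was -0.80, and the arrays no longer overlapped (exact two-sided permutation p = 0.1). The fourth pair, meg-1 and meg-2, is not read as a comparison of genes, since meg-2 lay within the range of the spike probe sets.

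**Figure D4:**
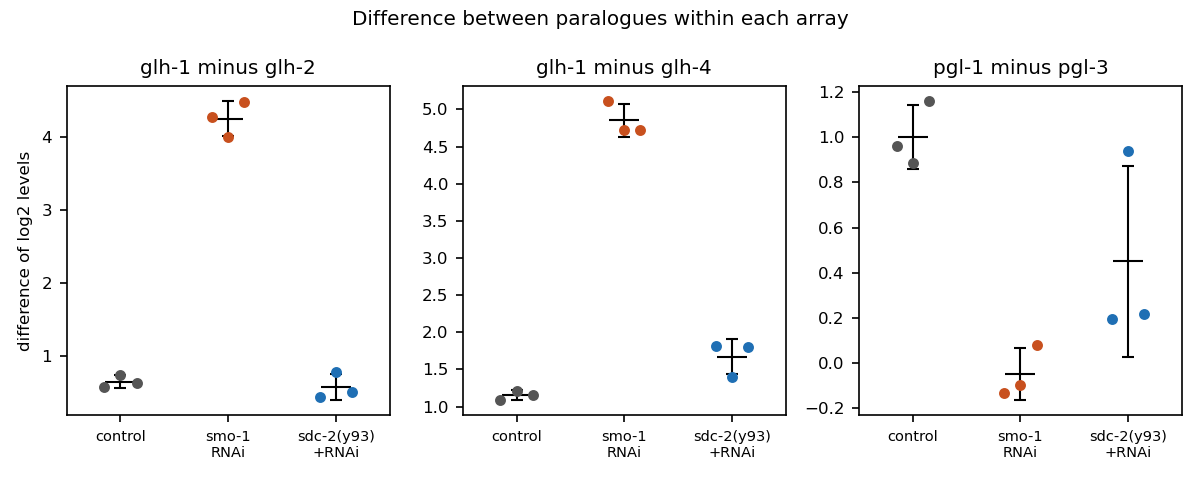
Log2 level of one gene minus that of its relative within each array (vertical axes, scales differ and do not start at 0), by group (horizontal axis), with points for arrays and bars for the mean ± SD of 3 arrays. The difference of glh-1 and glh-2 is 0.65 in control and 4.26 in smo-1 RNAi embryos, and that of pgl-1 and pgl-3 falls from 1.00 to -0.049.

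The profiles most like those of glh-1, pgl-1 and meg-1 were sought among the 8552 other genes above the median level, by the root mean square difference over the 9 arrays after each profile was centred on its control mean. For glh-1 they were F37D6.3 (0.26 log2 units), ccg-1 (0.27) and C14C6.5 (0.29), whose changes in smo-1 RNAi embryos were 3.50, 3.23 and 3.34. For pgl-1 they were istr-1 (0.076), Y39G10AR.32 (0.079) and znf-593 (0.087). For meg-1 they were pole-1 (0.12), C43H6.4 (0.15) and pigv-1 (0.15), of which C43H6.4 is X-linked like meg-1.

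Other proteins found in germ granules gave a list of 29 genes, 28 of them measured. In smo-1 RNAi embryos 7 rose, 7 fell and 14 did not pass, against 22.5% higher and 38.2% lower among genes above the median level, where 25 of the 28 lie, with a median log2 fold change of -0.15. The Argonaute gene csr-1 rose 6.51-fold, from 6.70 ± 0.09 (SD, n = 3) to 9.40 ± 0.26 (n = 3), a change of 2.70 ± 0.19 (limma adjusted p = 1.6e-06), and in sdc-2(y93)+RNAi embryos it was at 6.64 ± 0.41. The Piwi gene prg-1 rose by 1.20 ± 0.12 (limma adjusted p = 2.2e-05). Also higher was mip-2, a gene of a protein that binds GLH-1, at 1.37 ± 0.12 (limma adjusted p = 7.3e-06). The gene meg-3, for a disordered protein that helps to assemble embryonic P granules, fell by 1.16 on the log2 scale (SE 0.14, limma adjusted p = 7.5e-05). Thus meg-1 and meg-3 fell. For their relatives meg-2 and meg-4 the differences were -0.17 and -0.44 and did not pass (limma adjusted p = 0.28 and 0.12), although meg-4 passed without sdc-2(y93)+RNAi replicate 1, which only alters the spread estimate (adjusted p = 0.021). The fall of meg-4 also passed with only the 6 arrays compared (limma adjusted p = 0.0094), with the replicate block (0.047) and under autosomal centring (-0.57, adjusted p = 0.043). The 7 rises became 4 without control replicate 2 or smo-1 RNAi replicate 2, and the 7 falls became 13 under centring of arrays on their autosomal genes.

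In sdc-2(y93)+RNAi embryos 15 of the same 28 genes rose and 0 fell at limma adjusted p under 0.05, against 19.8% higher and 28% lower of genes above the median level and 10.9% and 15.6% of all genes. At unadjusted p under 0.05, 18 of the list were higher and 1 lower. Of the 15, 13 were among the 26 autosomal genes and 2 were the X-linked meg-3 and meg-4. The median was 0.44 over the list and 0.41 over its autosomal genes, against -0.18 for autosomal genes above the median level. The translational repressor gene gld-1 rose by 0.86 ± 0.09 (limma adjusted p = 8.3e-05), prg-1 by 0.90 ± 0.12 (limma adjusted p = 0.00041), the helicase gene znfx-1 by 0.66 ± 0.09 (limma adjusted p = 0.00050) and spn-4, for a maternal RNA-binding protein, by 1.02 ± 0.15 (limma adjusted p = 0.00065). In the direct comparison, 16 of the 28 genes were on the lower side in smo-1 RNAi embryos and 3 on the higher, against 30.8% and 25.2% of genes above the median level. With 1 array left out, between 11 and 18 of the 28 rose against control. The 18 was reached without replicate 2 of sdc-2(y93)+RNAi.

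**Figure D5:**
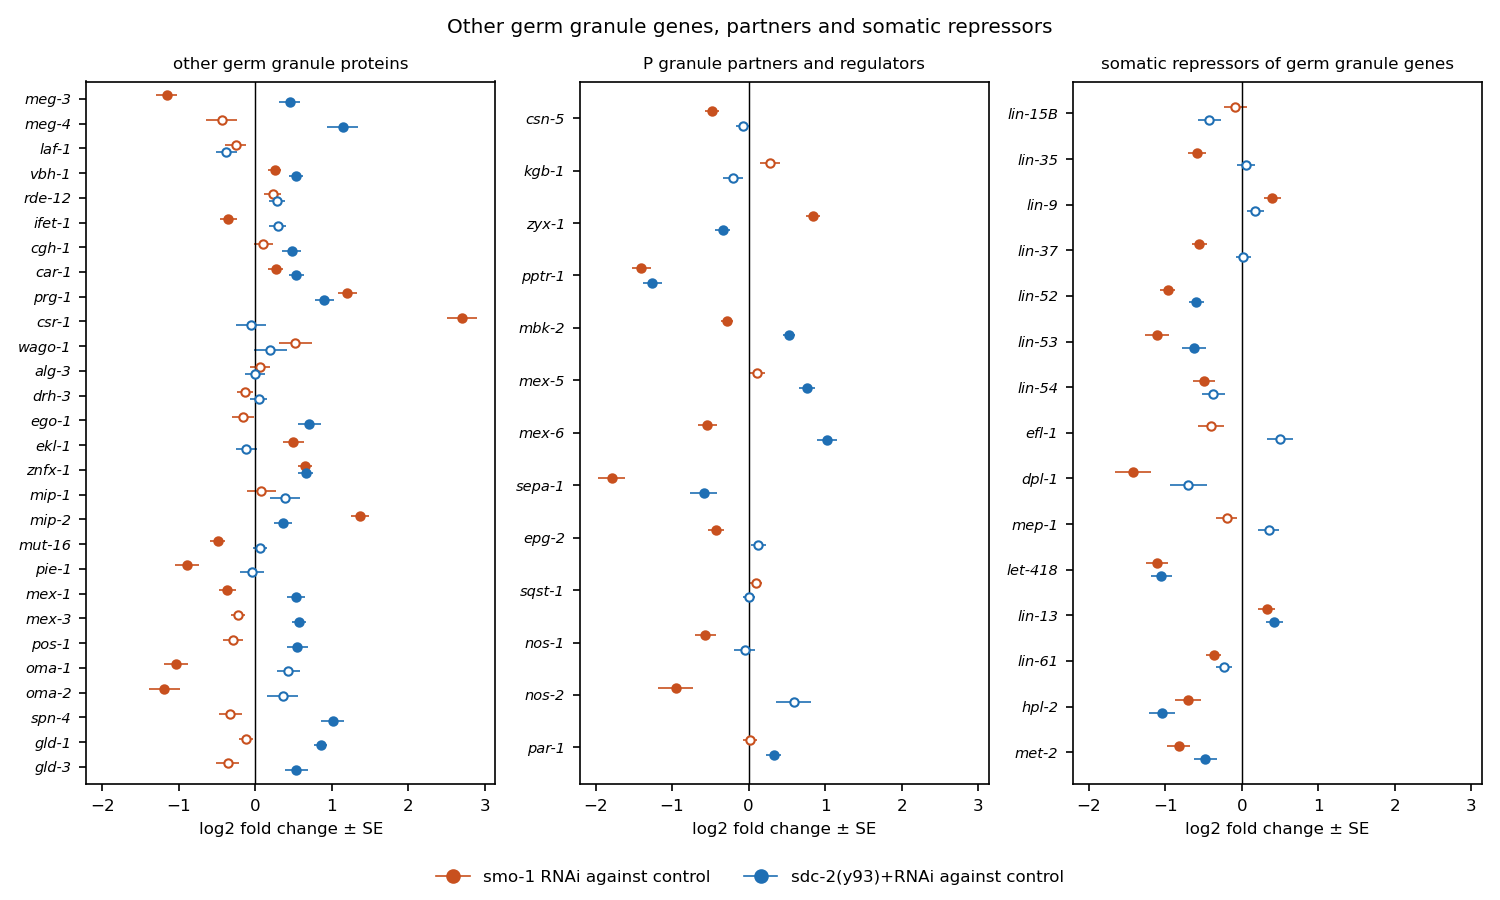
Log2 fold change ± SE against control (horizontal axis) of the measured genes of 3 lists (vertical axis), for each perturbed group, 3 arrays a group, filled where the limma adjusted p is under 0.05. Of 28 other germ granule genes 15 are filled to the right in sdc-2(y93)+RNAi embryos, and csr-1 at 2.70 is the point farthest to the right in smo-1 RNAi embryos.

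Of 13 genes of P granule partners and regulators, 8 fell and 1 rose in smo-1 RNAi embryos (median -0.42), and 3 fell and 4 rose in sdc-2(y93)+RNAi embryos (median 0.0086). All 13 lie above the median level, where 38.2% of genes fell and 22.5% rose in the first comparison and 28% and 19.8% in the other, so the sdc-2(y93)+RNAi counts are near the background. The gene pptr-1, for a phosphatase subunit that favours granule assembly, fell in both groups, smo-1 RNAi first, by 1.40 on the log2 scale (SE 0.12, limma adjusted p = 6.6e-06) and by 1.26 (SE 0.12, limma adjusted p = 6.2e-05). The gene sepa-1, for the adaptor that delivers PGL proteins to autophagy in somatic cells, fell by 1.79 (SE 0.18, limma adjusted p = 1.7e-05) and by 0.59 (SE 0.18, limma adjusted p = 0.031) in the same order, the latter call being lost with array weights, under either centring, with quantile normalization repeated, and without control replicate 1 (-0.63, adjusted p = 0.058), control replicate 3 (-0.43, adjusted p = 0.12) or sdc-2(y93)+RNAi replicate 2 (-0.44, adjusted p = 0.11). Of 3 genes of GLH-binding proteins, zyx-1 rose by 0.84 ± 0.10 in smo-1 RNAi embryos (limma adjusted p = 4.6e-05), csn-5 fell by 0.48 (SE 0.09, limma adjusted p = 0.0016), and kgb-1 did not pass. The genes mex-6 and mex-5, for polarity proteins that promote granule disassembly in the anterior, rose in sdc-2(y93)+RNAi embryos by 1.03 ± 0.13 and 0.76 ± 0.10 (limma adjusted p = 0.00023 and 0.00035), as did mbk-2, for a kinase with the same role, by 0.52 ± 0.08 (limma adjusted p = 0.00066). The call of mbk-2 was lost with the mean of its probe sets (0.24, limma adjusted p = 0.0997).

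Of 15 measured repressors that keep germ granule genes silent in somatic cells, 10 fell and 2 rose in smo-1 RNAi embryos (median -0.56). In sdc-2(y93)+RNAi embryos 5 fell and 1 rose (median -0.37). All 15 lie above the median level, where 38.2% of genes fell and 22.5% rose in the first comparison and 28% and 19.8% in the other. The falls in sdc-2(y93)+RNAi embryos are thus near the background. The gene let-418, for a Mi-2 type chromatin remodeller, fell by 1.11 on the log2 scale (SE 0.14, limma adjusted p = 0.00010) and by 1.05 (SE 0.14, limma adjusted p = 0.00037), smo-1 RNAi first. In the same order, lin-52, for a DREAM complex subunit, fell by 0.97 (SE 0.10, limma adjusted p = 2.3e-05) and 0.59 (SE 0.10, limma adjusted p = 0.0014). The gene dpl-1, for the DP partner of E2F, changed by -1.43 ± 0.24 (limma adjusted p = 0.00068) and -0.70 ± 0.24 (limma adjusted p = 0.052, and 0.0072 without sdc-2(y93)+RNAi replicate 1, at -0.97). The HP1 gene hpl-2 fell by 0.71 (SE 0.17, limma adjusted p = 0.0062, a call lost with the mean of its probe sets at -0.31, adjusted p = 0.062) and by 1.04 (SE 0.17, limma adjusted p = 0.0011). The probe sets of lin-53, for a histone-binding protein, disagree, with -1.11 and -0.62 on the brightest but -0.34 and 0.58 on the one not open to related transcripts.

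Markers of embryo age and of adult cells were read on the same arrays. The mean log2 level of 22 late embryo tissue markers was 9.26 to 9.60 on control arrays, 10.09 to 10.28 on smo-1 RNAi arrays and 9.31 to 9.42 on sdc-2(y93)+RNAi arrays. That of 19 early zygotic markers was 8.05 to 8.25, 7.51 to 7.64 and 8.17 to 8.29. For 22 oocyte and maternal markers it was 8.25 to 8.41, 8.27 to 8.33 and 8.36 to 8.59. The smo-1 RNAi arrays were thus high in late and low in early markers: 14 of the 22 late markers rose and 3 fell, and 10 of the 19 early markers fell with 0 higher (limma adjusted p under 0.05, and 0 higher at unadjusted p under 0.05), against 22.5% higher and 38.2% lower of genes above the median level. The late genes with the smallest adjusted p were cpr-1 (3.45), egl-21 (1.77), egl-3 (2.08) and ifb-2 (1.27), and the early ones elt-1 (-1.08), hlh-1 (-1.54), sdz-28 (-1.32) and vet-6 (-1.91). The sdc-2(y93)+RNAi embryos had 2 late markers that rose and 4 that fell, and 4 early markers rose and 2 fell, against 19.8% higher and 28% lower. By the same rule these were cpr-1 (0.72), dpy-7 (-1.03), ges-1 (-0.80) and myo-3 (-0.95) of the late and nhr-25 (1.09), pal-1 (0.68), hlh-1 (-1.12) and sdz-38 (-0.54) of the early list. Of the maternal list, in smo-1 RNAi embryos 7 rose and 10 fell, and 3 rose and 0 fell in sdc-2(y93)+RNAi embryos at limma adjusted p under 0.05 (6 and 1 at unadjusted p under 0.05). These maternal shares are near the background in smo-1 RNAi embryos. The smallest adjusted p there were those of fbf-1 and fbf-2, for RNA-binding proteins of the adult germline stem cells, which rose by 1.67 ± 0.08 (limma adjusted p = 1.4e-07) and 2.46 ± 0.21 (limma adjusted p = 6.0e-06). Their control means, 5.28 and 5.64, lay within the range of the spike probe sets, and their smo-1 RNAi means, 6.95 and 8.10, above it. Next came puf-3, another PUF family gene, and cpg-1, of an eggshell proteoglycan, which fell by 1.31 (SE 0.16, limma adjusted p = 6.5e-05) and 1.09 (SE 0.15, limma adjusted p = 0.00021). The 3 that rose in sdc-2(y93)+RNAi embryos were gld-2 (0.78), zif-1 (0.81) and cpg-2 (0.54), the last lost without any of 4 arrays, control replicates 2 (0.54, adjusted p = 0.069) and 3 (0.39, 0.12) and sdc-2(y93)+RNAi replicates 1 (0.44, 0.099) and 3 (0.57, 0.058). For 24 sperm markers the mean level was 5.80 to 5.86 in control, 5.94 to 5.98 in smo-1 RNAi and 5.74 to 5.89 in sdc-2(y93)+RNAi embryos. With smo-1 RNAi, 3 of the 24 were higher and 0 lower at limma adjusted p under 0.05, against 17.8% and 22.2% of all genes. The 3 were spe-15 at 7.67 (0.77 above control), spe-41 at 6.80 (0.75) and msp-55 at 6.80 (0.37). The control means of spe-15 (6.90) and msp-55 (6.43) already lay above the spike probe sets. The control mean of spe-41 (6.05) lay within their range. The call of msp-55 was lost without any of 5 arrays, control replicates 1 (adjusted p = 0.12), 2 (0.069) and 3 (0.055) and smo-1 RNAi replicates 1 (0.12) and 3 (0.062). In sdc-2(y93)+RNAi embryos 1 of the 24 fell and 0 rose, against 15.6% and 10.9% of all genes. This was spe-15 (-0.63), a call lost without control replicates 2 (adjusted p = 0.081) or 3 (0.079) or sdc-2(y93)+RNAi replicate 1 (0.051). None of 5 yolk genes passed in either comparison (limma, 0 also at unadjusted p under 0.05), with vit-5 at 0.12 and vit-1 at 0.031 in smo-1 RNAi and vit-2 at 0.26 and vit-6 at -0.12 in sdc-2(y93)+RNAi embryos. The part of embryo age and of adult tissue in the changes of P granule genes was not tested.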

How the data were processed

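Per the submitters' processing notes, the deposited log2 values come from RMA as run by Affymetrix Expression Console. The version and settings were not stated there. RMA brings arrays toward one distribution, which can hide a shift common to all transcripts, and it shrinks differences of dim genes. The array medians of the deposited values still ran from 6.51 to 6.72. Of 22625 probe sets, 77 controls, 887 listed with several genes and 895 without an entry in the platform annotation were not tested. Of the other 20766, 20701 matched the RefSeq table of assembly WBcel235, the source of symbols and chromosomes. The brightest probe set over the 9 arrays stood for each of 17118 genes. Other probe sets were tested in a fit over all 20766.

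Groups came from the sample titles. limma 3.58.1 in R 4.3.3 (lmFit and eBayes) was fitted across all genes to the 9 arrays with group as the only term, which leaves 6 residual degrees of freedom, and two-sided p-values were adjusted by Benjamini-Hochberg (threshold 0.05). Fold changes are differences of mean log2 values with the SE of the fit. The number of arrays limits the precision. Alternatives changed the choice of probe sets, the filter on dim genes, the moderation, array weights, a replicate block, the arrays fitted, the scaling and the threshold, and left out each array. The fit was tested on simulated data. The members and lists were chosen with earlier results of these data known. All members are named, and from each other list up to 4 genes with the lowest adjusted p under the threshold in each comparison with control, or up to 2 as values where none passed. The genes meg-4 and kgb-1 were added after their values were seen.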

Additional observations from a re-analysis of the deposited data

Results flagged for a closer look

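One signal lay outside the measurement of genes. On the sdc-2(y93)+RNAi arrays the hybridisation control cre was 7.83 above control on the log2 scale, at 13.11 against 5.28 on control and 4.99 on smo-1 RNAi arrays. Every comparison of P granule genes with this group, the rise of meg-1 included, sets arrays with that signal against arrays without it. Groups of 3 arrays are too small for the test of single outlying arrays.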

How the results depend on the processing

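Of the members, glh-1, pgl-3 and deps-1 in smo-1 RNAi against control, meg-1 and pgl-1 in sdc-2(y93)+RNAi against control, and glh-1, meg-1, deps-1, pgl-1 and pgl-3 in the direct comparison kept direction and call under every alternative that measured them. Counts below are given in the order of the main value and the alternative, and the cause of a change was not tested unless stated. In sdc-2(y93)+RNAi against control the members that fell went from 2 to 0 without probe sets open to related transcripts, which leaves 7 members and neither pgl-1 nor glh-4, and to 1 at adjusted p under 0.01. In the direct comparison those higher went from 4 to 2 without such probe sets and those lower from 2 to 4 with arrays centred on autosomal genes, or from 2 to between 2 and 4 without 1 array. Centring on autosomal genes moved every gene by -0.13 in smo-1 RNAi and 0.067 in sdc-2(y93)+RNAi embryos, and centring on those above the median level by 0.20 and 0.26. Under the latter pgl-2 lost its fall in smo-1 RNAi embryos (-0.23, adjusted p = 0.14).

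For other germ granule proteins in smo-1 RNAi embryos, the 7 higher became 4 under autosomal centring and 4 at adjusted p under 0.01, with 4 to 8 without 1 array. The 7 lower became 13 with the mean of all probe sets, 1 without probe sets open to related transcripts (19 genes left), 12 with array weights and 13 under autosomal centring. In sdc-2(y93)+RNAi embryos the 0 lower became 1 with array weights, 1 with the replicate block and 0 to 1 without 1 array. In the direct comparison the 16 lower became 9 without such probe sets. For partners and regulators in smo-1 RNAi embryos, the 1 higher became 0 without such probe sets, 2 with array weights, 2 with quantile normalization repeated, 4 under centring above the median level and 1 to 2 without 1 array, and the 8 lower became 5 without such probe sets (8 genes left) and 5 under that centring. In sdc-2(y93)+RNAi embryos the 4 higher became 2 with the mean of all probe sets and 7 under centring above the median level, and the 3 lower became 1 under either centring, 1 with quantile normalization, 1 at adjusted p under 0.01 and 1 to 3 without 1 array. In the direct comparison the 2 higher became 0 without such probe sets, 1 under autosomal centring and 1 at 0.01. For somatic repressors in smo-1 RNAi embryos, the 2 higher became 0 without such probe sets (7 genes left), 0 under autosomal centring, 0 at 0.01, 1 with the replicate block and 0 to 2 without 1 array, and the 10 lower became 3 without such probe sets. In sdc-2(y93)+RNAi embryos the 1 higher became 2 under 7 alternatives, 5 under centring above the median level, 0 at 0.01 and 0 to 3 without 1 array, and the 5 lower became 3 with the mean of all probe sets, 3 without such probe sets, 3 at 0.01 and 3 to 6 without 1 array. In the direct comparison the 0 higher became 1 with the mean of all probe sets, 1 with quantile normalization and 0 to 1 without 1 array, and the 7 lower became 4 at 0.01.

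Signs of differences that passed no test turned in sdc-2(y93)+RNAi against control. With array weights they were 0.11 for glh-1, 0.20 for glh-2, 0.10 for pgl-2 and 0.16 for csr-1. Under autosomal centring they were 0.027 for glh-2, 0.054 for glh-3 and 0.012 for csr-1. Under centring above the median level they were 0.15 for glh-1, 0.22 for glh-2, 0.25 for glh-3, 0.19 for pgl-2, 0.044 for pgl-3 and 0.21 for csr-1. With quantile normalization they were 0.014 for glh-1, 0.051 for glh-2, 0.0016 for glh-3 and -0.017 for meg-2. In smo-1 RNAi against control, centring above the median level gave 0.066 for glh-2, 0.15 for pgl-1 and 0.029 for meg-2. For yolk genes, autosomal centring gave -0.0074 for vit-5 and -0.10 for vit-1 and quantile normalization -0.056 for vit-1 in smo-1 RNAi embryos. In sdc-2(y93)+RNAi embryos vit-6 was 0.041 with the mean of all probe sets, 0.20 without probe sets open to related transcripts and 0.15 under centring above the median level, where vit-2 passed (0.52, adjusted p = 0.017). With the mean of all probe sets gld-2 (0.12), pal-1 (0.0038), mbk-2 (0.24) and cpg-2 (0.36) lost their rises there. Without 1 array the sdc-2(y93)+RNAi differences ran from -0.23 to 0.12 for glh-1, -0.22 to 0.30 for glh-2, -0.13 to 0.057 for glh-3, -0.20 to 0.076 for pgl-2, -0.39 to 0.12 for pgl-3, -0.067 to 0.33 for deps-1, -0.086 to 0.096 for meg-2 and -0.19 to 0.18 for csr-1. They ran from -0.15 to 0.041 for pgl-1 in smo-1 RNAi against control and from -0.43 to 0.086 for glh-2 in the direct comparison. One called change turned, the fall of lin-53 in sdc-2(y93)+RNAi embryos, which became 0.58 (limma adjusted p = 0.020) on the probe set not open to related transcripts, and that fall was also lost without control replicate 1 (adjusted p = 0.055) or 3 (0.058).

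Deviations of arrays with the same replicate number correlated at r from -0.22 to 0.24 between groups, and those with different numbers at -0.29 to 0.20. With 3 arrays a group, these values cannot show whether the numbers mark a shared batch. With the replicate number as a block the members called stayed at 3 higher and 3 lower, 1 and 2, and 4 and 2 in the 3 comparisons. Without 1 array the arm of 2 arrays shares the spread estimated over all groups. Dim probe sets, pgl-2 and meg-2 among them, limit what can be seen, since their signal lay within that of unraised spike probe sets.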
